A study of Mus musculus with 6 samples.

Results

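The transcripts of 9 chemokine receptors of myeloid cells (Ccr1, Ccr2, Ccr6, Ccr9, Cxcr2, Cxcr3, Cxcr4, Cx3cr1 and Ccrl2) were followed across 3 kinds of mouse bone marrow (BM) culture. The receptors were taken by name from the arrays, which held 12 probes for them among 56605 probes, and they are 9 of 37325 gene names. RNA was measured on 6 one-colour arrays, 2 for each group, with probes of 60 bases. All cells came from C57BL/6J female mice aged 6 to 8 weeks and were grown with the growth factor GM-CSF, and no genetic change is named for any group. Conventional myeloid-derived suppressor cells, MDSC (conv.), were grown from unseparated BM with 40 ng/mL GM-CSF for 4 days, and the description of these samples also mentions dendritic cells. The 6G- BM-MDSC were grown in the same way after Ly-6G+ cells had been removed from the BM with magnetic beads. Dendritic cells (DCs) were grown from BM with 20 ng/mL GM-CSF for 8 days in another kind of dish, so that they differed from the MDSC groups in dose, time and dish. No sorting after culture is described for these samples, so each array held the RNA of a mixed culture.

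Chemokine receptors are receptors of the cell surface that signal through inhibitory G proteins and steer cells along gradients of small secreted proteins, the chemokines. In myeloid cells they are known to set which cells leave the BM, where they go and how long they stay there. Cxcr2 is best known from neutrophils, Ccr2 and Cx3cr1 from monocytes and macrophages, and Ccr6 from dendritic cells and lymphocytes, while Ccrl2 binds the chemoattractant chemerin without signalling itself.

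Each value below is the log2 of the array intensity minus the 75th percentile of the same array, so that 0 is the level of a probe at that percentile, and the value of replicate 1 is given before that of replicate 2. This percentile lay between 560.2 and 633.3 intensity units, and 55.6% to 59.9% of the probes of an array were called well above background by the image software. The groups were compared with limma, using 1 model of all 6 arrays, and p was adjusted by Benjamini-Hochberg over 21862 genes with a threshold of 0.05. Because probes bind with different strength, no level of one gene was set against that of another. Both comparisons with DCs used the same 2 DC arrays. Both MDSC groups lay in array row 1 of the slide and DCs in row 2, so row and the difference from DCs cannot be told apart. The labels do not say that the 2 samples of a group were separate cultures or animals, so the p-values measure only the spread between these samples.

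All 9 receptors passed the filter on dim probes, but Cxcr3 passed it through the MDSC groups alone, which favours a difference from DCs. Compared with DCs, 4 receptors were higher and 1 was lower in MDSC (conv.), where 13.4% of all tested genes were called higher and 15.8% lower. In 6G- BM-MDSC, 6 receptors were higher and 1 was lower than in DCs, with 15.0% of all genes called higher and 17.8% lower. Without Cxcr3, the receptors higher than in DCs were 3 of 8 in MDSC (conv.) and 5 of 8 in 6G- BM-MDSC. Between both MDSC groups, 0 receptors were called, with 4 at an unadjusted p under 0.05, as were 10.8% of all genes, and of all genes 0.00457% were called higher and 0.00915% lower in 6G- BM-MDSC. The median difference of the 9 receptors was 0.42 for MDSC (conv.) minus DCs and 0.80 for 6G- BM-MDSC minus DCs on the log2 scale, against -0.031 and -0.036 over all tested genes. With Cxcr3 left out, the medians of these comparisons with DCs were 0.41 and 0.54. For 6G- BM-MDSC minus MDSC (conv.) the median of the 9 receptors was -0.13, against 0.004 over all genes.

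**Figure D1:**
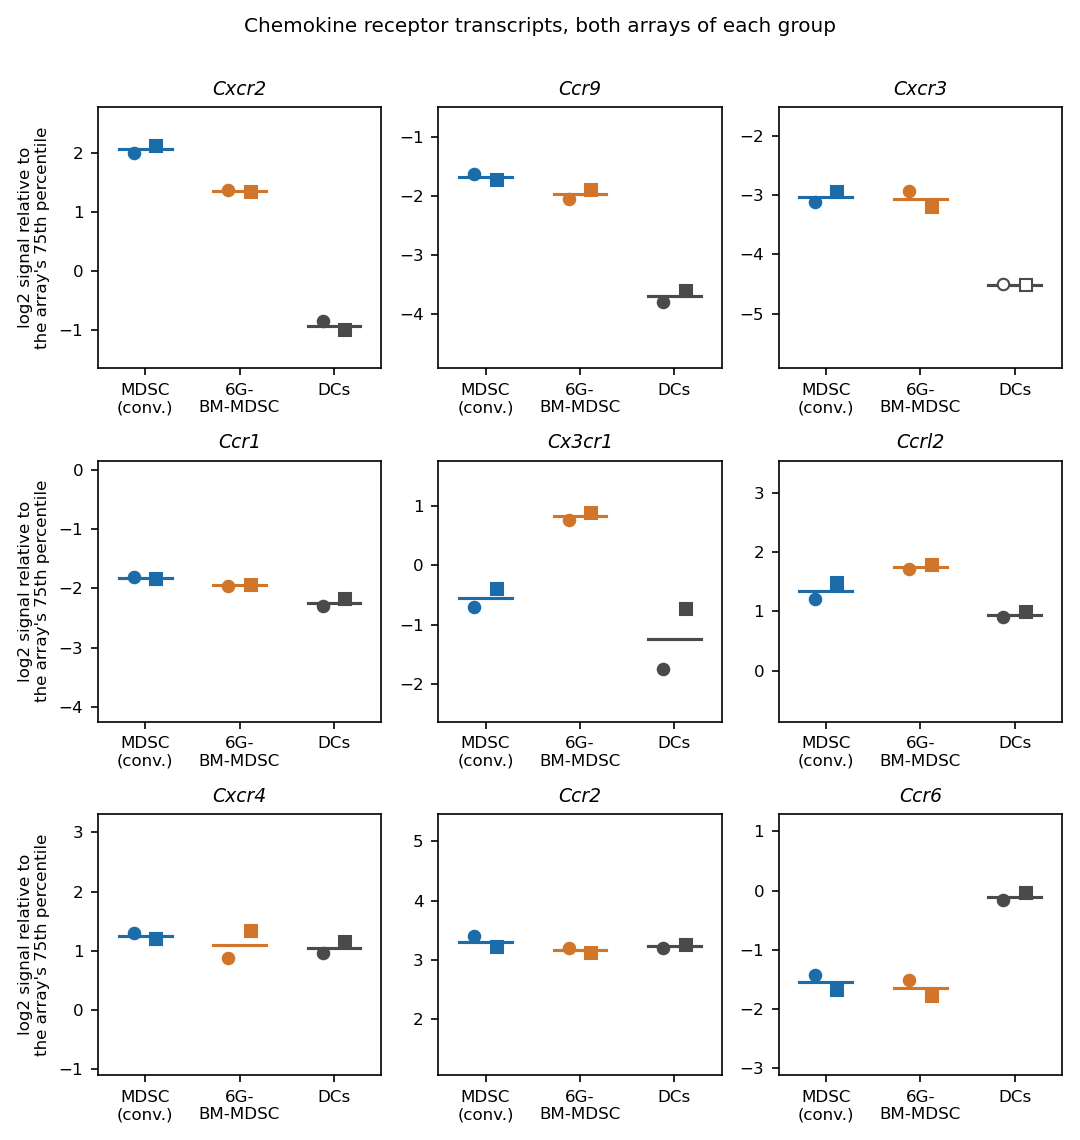
Log2 signal of the 9 receptor transcripts, relative to the 75th percentile of each array (vertical axis), in the 3 groups (horizontal axis). Circles are replicate 1, squares replicate 2, lines the group mean, and open points were not well above background. Cxcr2, Ccr9 and Cxcr3 lay lower on both DC arrays than on the 4 MDSC arrays, Ccr6 lay higher there, and Cx3cr1 lay highest on both 6G- BM-MDSC arrays. Panels share a unit, but heights of different panels cannot be compared.

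The receptors with the largest difference from DCs in each direction among those tested, Cxcr2 and Ccr6, and Cx3cr1, which had the largest difference between both MDSC groups, are shown by the 250 bases before their RefSeq start on build GRCm38.p6. All 9 receptors had an entry in this table of promoters, Ccr6 with 2 starts and Ccrl2 with 3, and the first start of Ccr6 is shown. Capitals mark the letters GAGGAA, a core of the sites of PU.1, a transcription factor of myeloid cells, on either strand. Cxcr2 lies at chr1:74153744-74153993 on the plus strand, Ccr6 at chr17:8235793-8236042 on the plus strand and Cx3cr1 at chr9:120068297-120068546 on the minus strand, each printed 5′ to 3′ along the gene.
Cxcr2: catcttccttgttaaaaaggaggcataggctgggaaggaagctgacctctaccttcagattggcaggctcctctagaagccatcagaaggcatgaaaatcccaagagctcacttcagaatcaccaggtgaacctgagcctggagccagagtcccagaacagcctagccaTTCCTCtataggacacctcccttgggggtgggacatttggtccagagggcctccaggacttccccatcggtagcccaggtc
Ccr6: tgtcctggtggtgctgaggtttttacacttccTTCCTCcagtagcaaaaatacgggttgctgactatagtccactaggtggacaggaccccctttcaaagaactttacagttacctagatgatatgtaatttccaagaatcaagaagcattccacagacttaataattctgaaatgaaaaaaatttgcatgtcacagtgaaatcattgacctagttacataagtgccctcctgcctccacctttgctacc
Cx3cr1: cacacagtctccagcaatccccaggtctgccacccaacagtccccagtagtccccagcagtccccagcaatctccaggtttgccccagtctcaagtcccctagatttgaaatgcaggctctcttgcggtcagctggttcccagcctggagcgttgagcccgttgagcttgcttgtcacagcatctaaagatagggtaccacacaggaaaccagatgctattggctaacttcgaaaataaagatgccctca
The letters GAGGAA or their reverse complement were found before a start of 4 of the 9 receptors, namely Ccr1, Ccr6, Cxcr2 and Cxcr3. They were found in 23.3% of all 32851 promoter windows of this length. A receptor was counted if any of its starts had a match, whereas the share counts single windows, so these are unlike units. In Cxcr2 the match lay 81 to 76 bases before the start, and in Ccr6 218 to 213 bases before it, both on the other strand. The letters TTGCNNAA, a core of the sites of the C/EBP factors of the granulocyte lineage, were found in 0 of the 9 receptors and in 9.56% of all windows. Receptors with a match to GAGGAA included both one that was lower and ones that were higher in the MDSC groups, and no binding was measured here.

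Cxcr2, the receptor through which neutrophils follow the chemokines Cxcl1, Cxcl2, Cxcl3, Cxcl5 and Ppbp, differed most from DCs. Its log2 signal was 2.0 and 2.12 with MDSC (conv.) RNA, 1.36 and 1.33 with 6G- BM-MDSC RNA, and -0.85 and -0.99 with DC RNA. The 3 groups did not overlap, and both MDSC groups lay above DCs. The difference from DCs was 2.98 (SE 0.09, n = 2, limma, adjusted p = 0.000208) in MDSC (conv.) and 2.27 (SE 0.09, n = 2, limma, adjusted p = 3e-04) in 6G- BM-MDSC, which is 7.87-fold and 4.81-fold. In 6G- BM-MDSC, Cxcr2 was 1.64-fold below MDSC (conv.), a difference of -0.71 with a 95% interval of -0.94 to -0.48 that did not pass the adjustment over all genes (limma, adjusted p = 0.214). It passed when the prior variance of the test was allowed to depend on intensity (limma, adjusted p = 0.0414).

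Of 14 neutrophil markers, 12 were higher in each MDSC group than in DCs and 0 were lower. Their summed signal, in units of the 75th percentile, was 1771 and 1738 for MDSC (conv.), 1428 and 1687 for 6G- BM-MDSC, and 610.1 and 606 for DCs, and all 14 were well above background on every array. Retnlg, a resistin-like protein of neutrophils, had the largest differences, 6.34 and 6.01, followed by Mmp9, a granule protease, with 5.0 and 5.36. Ly6g, which encodes the antigen used to remove cells from the BM, stood at 1.95 and 1.96 with MDSC (conv.) RNA, 1.71 and 1.86 with 6G- BM-MDSC RNA, and -1.94 and -2.19 with DC RNA. Both MDSC groups therefore held Ly6g transcripts at the time of measurement, also where Ly-6G+ cells had been removed before culture. Between both MDSC groups the marker list had a median difference of -0.18 with 0 of 14 called, beside -0.71 for Cxcr2. The part of the neutrophil share of the cultures in the levels of Cxcr2 was not tested. In such bulk samples, fewer cells of a type and less RNA per cell cannot be told apart.

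Ccr9, the receptor for the gut and thymus chemokine Ccl25, is known from T cells and plasmacytoid DCs. The arrays read -1.63 and -1.73 for MDSC (conv.), -2.05 and -1.89 for 6G- BM-MDSC, and -3.79 and -3.61 for DCs. Both MDSC groups lay above DCs without overlap, by 2.02 (SE 0.11, n = 2, limma, adjusted p = 0.000597), or 4.06-fold, for MDSC (conv.) and by 1.73 (SE 0.11, n = 2, limma, adjusted p = 0.000866), or 3.31-fold, for 6G- BM-MDSC. The size of these differences depended on the background correction, and with normexp in place of the image software's subtraction they were 1.20 and 1.01 and passed. The 6G- BM-MDSC arrays also lay below those of MDSC (conv.), by a difference of -0.29 that did not pass (limma, adjusted p = 0.435). A further probe, which was designed on a cDNA clone and carries the same gene name, was not well above background on any array. Of 8 markers of plasmacytoid DCs, 2 were higher and 3 lower in MDSC (conv.) than in DCs, and 2 were higher and 5 lower in 6G- BM-MDSC. Klk1, a kallikrein protease, was lower, with -2.99 and -3.55. Siglech, a surface lectin of these cells, had 5.56 and 5.72 with MDSC (conv.) RNA, 4.01 and 3.37 with 6G- BM-MDSC RNA and 6.13 on DC replicate 1, while its spot on DC replicate 2 was marked and left out of the fit. Ly6d was 3.08 higher in MDSC (conv.) than in DCs (limma, adjusted p = 3e-04). Siglech lay highest on DC replicate 1, the only DC array with a value for it, whereas Ly6d lay lowest in DCs, as Ccr9 did. The summed signal of the 8 markers was 77.5 and 81.8 for MDSC (conv.), 41.5 and 36.8 for 6G- BM-MDSC, and 123 and 49.1 for DCs, the last without Siglech, and their part in the levels of Ccr9 was not tested.

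Cxcr3, known as the receptor of activated T and NK cells for interferon-induced chemokines, was dim throughout. Its log2 signal was -3.12 and -2.95 with MDSC (conv.) RNA, -2.93 and -3.20 with 6G- BM-MDSC RNA, and on the DC arrays it stood at -4.51 and -4.51, not well above background on either. Relative to DCs, MDSC (conv.) read 2.78-fold higher, a log2 difference of 1.477 (95% interval 1.158 to 1.795, limma, adjusted p = 0.00195). For 6G- BM-MDSC it was 2.72-fold, a difference of 1.445 (95% interval 1.126 to 1.764, limma, adjusted p = 0.00202). Bounds below replace each dim DC signal by the array's lowest signal of any probe well above background, where that is higher. For Cxcr3 the DC signals were already higher on both arrays, so its bound equals the plain fold given here. Cxcr3 was not well above background even so, and that lowest signal is not a detection limit for every probe. The folds of Cxcr3 hold for the background subtraction of the image software alone. With normexp the log2 differences were smaller, 0.65 for MDSC (conv.) and 0.63 for 6G- BM-MDSC (limma, adjusted p = 0.00154 and 0.00163). The arrays of both MDSC groups overlapped, with a difference of -0.03 and a 95% interval of -0.35 to 0.29.

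Markers of T, NK and B cells were measured beside the receptors that lymphocytes share. Of 8 tested T and NK cell markers, 3 were higher and 3 lower in MDSC (conv.) than in DCs, and 3 were higher and 2 lower in 6G- BM-MDSC. Gzmb, a cytotoxic granule protease, was not well above background on either DC array and exceeded the DC level at least 1.43-fold in MDSC (conv.) and at least 1.78-fold in 6G- BM-MDSC (limma, adjusted p = 0.0487 and 0.0324). Gzmb, counted among the markers called higher, passed the filter through the MDSC groups alone, which favours a difference from DCs. Cd3d, a chain of the T cell receptor complex, was 1.67 higher in MDSC (conv.), while Cd3g of the same complex had a difference of -1.32. The summed signal of these 8 markers was 3.94 and 3.70 for MDSC (conv.), 3.76 and 3.52 for 6G- BM-MDSC, and 4.43 and 3.43 for DCs, so that the groups overlapped. Of 7 tested B cell markers, 4 were higher in each MDSC group than in DCs and 0 were lower, with a summed signal of 4.19 and 4.08 with MDSC (conv.) RNA, 4.11 and 3.59 with 6G- BM-MDSC RNA, and 0.687 and 0.562 with DC RNA. Ms4a1, which encodes CD20, had a difference of 3.72 for MDSC (conv.) and 3.51 for 6G- BM-MDSC. Of the B cell markers called higher, Ebf1 passed the filter through the MDSC groups alone, and Cd79a did so without a call. All 7 B cell markers were well above background on the 4 MDSC arrays and 5 of them on each DC array, and their part in the levels of Ccr6, Ccr9 and Cxcr3 was not tested.

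Ccr6, the receptor for Ccl20, was the receptor that stood higher in DCs. It gave log2 signals of -1.42 and -1.67 for MDSC (conv.), -1.51 and -1.78 for 6G- BM-MDSC, and -0.17 and -0.05 for DCs. Both DC arrays lay above all 4 MDSC arrays, and the MDSC groups overlapped. Ccr6 was lower than in DCs by a difference of -1.44 (SE 0.14, n = 2, limma, adjusted p = 0.00286), or 2.72-fold, in MDSC (conv.) and of -1.54 (SE 0.14, n = 2, limma, adjusted p = 0.00233), or 2.90-fold, in 6G- BM-MDSC. Of 12 DC markers, 10 were lower in each MDSC group than in DCs. Ciita, the activator of MHC class II genes, had differences of -1.64 and -2.14. Zbtb46, a transcription factor of classical DCs, had a difference of -1.45 in MDSC (conv.), and H2-Aa of MHC class II had -1.10, whereas Clec9a, a receptor for dead cells, was 1.21 higher there. Their summed signal was 766.2 and 709.8 with MDSC (conv.) RNA, 750 and 697.6 with 6G- BM-MDSC RNA, and 1176 and 1194 with DC RNA, and all 12 were well above background on every array. MDSC cultures therefore carried transcripts of these markers too, and the cells they came from are not known. The part of DC markers in the levels of Ccr6 was not tested.

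Cx3cr1, the receptor for fractalkine on monocytes and macrophages, stood highest in 6G- BM-MDSC. Its brighter probe gave -0.71 and -0.40 for MDSC (conv.), 0.77 and 0.88 for 6G- BM-MDSC, and -1.76 and -0.73 for DCs. The 6G- BM-MDSC arrays lay above all others, and the DC arrays lay farther apart than those of either MDSC group. Compared with DCs, Cx3cr1 was 4.19-fold higher in 6G- BM-MDSC, a difference of 2.07 (SE 0.35, n = 2, limma, adjusted p = 0.0129). This call was lost without 6G- BM-MDSC replicate 1 (limma, adjusted p = 0.0555) and without replicate 2 (limma, adjusted p = 0.0693), with differences of 2.13 and 2.01. In MDSC (conv.) the difference from DCs was 0.69 with an interval of -0.20 to 1.58 and did not pass (limma, adjusted p = 0.197), and it depended on the DC arrays used. Without DCs replicate 2 it was 1.20 and passed (limma, adjusted p = 0.0226), and without DCs replicate 1 it was 0.18 (limma, adjusted p = 0.508). Between both MDSC groups the difference was 1.38 (95% interval 0.48 to 2.27), or 2.60-fold, which did not pass (limma, adjusted p = 0.342).

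The arrays carried a pair of probes each for Cx3cr1 and Cxcr4, and their first 30 bases, 5′ to 3′ as the files give them, are printed because the pairs show how far a result rests on 1 probe. On build mm9 the probes of Cx3cr1 lie at chr9:119957811-119957870 and chr9:119959018-119959077, and those of Cxcr4 at chr1:130485079-130485138 and chr1:130486114-130486173, with the brighter one named first.
Cx3cr1, brighter probe: cgtgcctagagtgtgtctatcccacttgta
Cx3cr1, dimmer probe: caagaatgtcttcatgcattcactgactcc
Cxcr4, brighter probe: aggaagaaactgaacattccagaatgtgtg
Cxcr4, dimmer probe: tttgtgtaaggctgtccatatcatctacac
The dimmer probe of Cx3cr1 gave -3.63 and -3.43 with MDSC (conv.) RNA, -2.02 and -1.80 with 6G- BM-MDSC RNA, and -4.91 and -3.77 with DC RNA, the first of these not well above background. It ranked the groups in the same order as the brighter one. Its difference was 2.43 (SE 0.38) between 6G- BM-MDSC and DCs, which passed (limma over all probes, adjusted p = 0.0104), and 1.62 (SE 0.38) between both MDSC groups, which did not (limma over all probes, adjusted p = 0.337). The dimmer probe of Cx3cr1 passed the filter through the MDSC groups alone, which favours a difference from DCs.

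Cxcr4, the receptor for Cxcl12 that holds immature cells in the BM, gave different calls with its probes. The brighter probe had 1.30 and 1.20 for MDSC (conv.), 0.88 and 1.33 for 6G- BM-MDSC, and 0.96 and 1.15 for DCs. The 6G- BM-MDSC arrays spanned those of both other groups. The difference from DCs was 0.19 (95% interval -0.25 to 0.63) in MDSC (conv.) and 0.05 (95% interval -0.39 to 0.49) in 6G- BM-MDSC, and neither passed. The dimmer probe had -0.61 and -0.39 with MDSC (conv.) RNA, -0.70 and -0.46 with 6G- BM-MDSC RNA, and -1.15 and -0.99 with DC RNA. Here both DC arrays lay below all 4 MDSC arrays, and the difference from DCs passed in MDSC (conv.), with 0.57 (SE 0.13, limma over all probes, adjusted p = 0.0338), and in 6G- BM-MDSC, with 0.50 (SE 0.13, limma over all probes, adjusted p = 0.0456). The intervals of both probes overlap, and neither probe separated the MDSC groups.

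**Figure D2:**
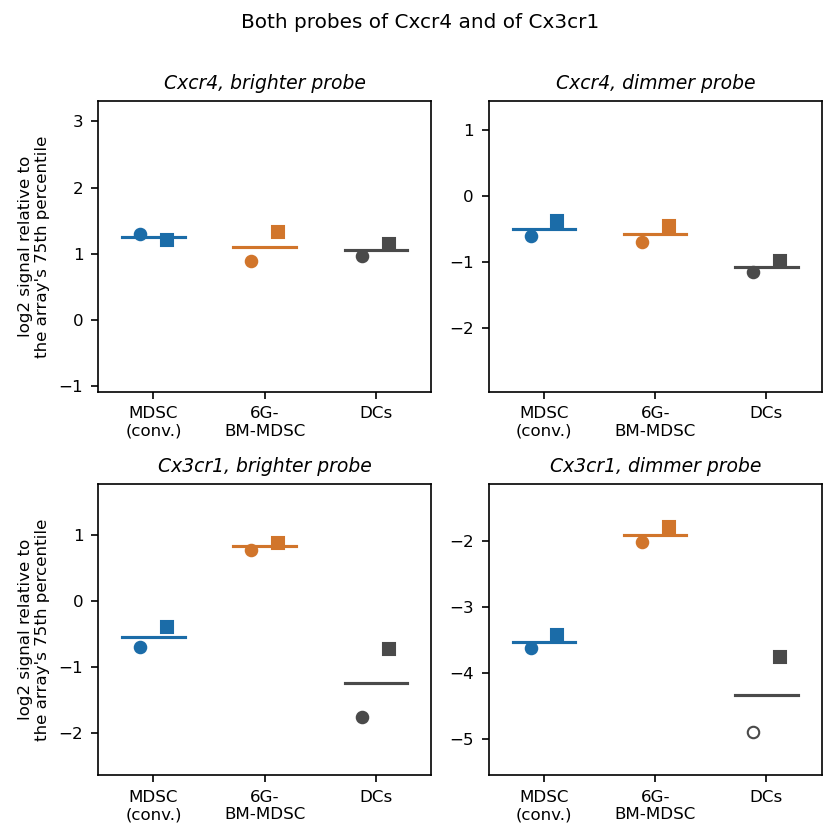
Log2 signal relative to the 75th percentile of each array (vertical axis) for both probes of Cxcr4 and both probes of Cx3cr1 in the 3 groups. Circles are replicate 1, squares replicate 2, lines the group mean, and the open circle was not well above background. Both Cx3cr1 probes were highest in 6G- BM-MDSC, while for Cxcr4 the DCs lay apart from the MDSC groups with the dimmer probe alone.

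Ccr1, a receptor for Ccl3, Ccl5 and other inflammatory chemokines, changed little. It measured -1.80 and -1.83 for MDSC (conv.), -1.96 and -1.94 for 6G- BM-MDSC, and -2.29 and -2.18 for DCs. The groups did not overlap and were close together. Ccr1 was 1.34-fold higher in MDSC (conv.) than in DCs, with a difference of 0.42 (SE 0.08, n = 2, limma, adjusted p = 0.0165), and 1.22-fold higher in 6G- BM-MDSC, with 0.29 (SE 0.08, n = 2, limma, adjusted p = 0.0417). The second call was lost when any 1 of the 6 arrays was left out (limma, adjusted p = 0.0752 to 0.162). The first was lost without MDSC (conv.) replicate 1, MDSC (conv.) replicate 2 or DCs replicate 1 (limma, adjusted p = 0.0728, 0.0767 and 0.0749).

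Ccrl2, which presents chemerin to other cells, was higher in 6G- BM-MDSC than in DCs. Its log2 signal was 1.22 and 1.48 with MDSC (conv.) RNA, 1.71 and 1.78 with 6G- BM-MDSC RNA, and 0.91 and 0.99 with DC RNA, again without overlap between groups. The difference from DCs was 0.80 (SE 0.11, n = 2, limma, adjusted p = 0.00748), or 1.74-fold, in 6G- BM-MDSC. In MDSC (conv.) it was 0.40 (SE 0.11) and did not pass (limma, adjusted p = 0.0518). Leaving out 1 array moved it between 0.27 and 0.53 (limma, adjusted p = 0.044 to 0.178), with a pass only without MDSC (conv.) replicate 1. It also passed with normexp, with quantile normalization, with no scaling, with the filter on all 6 arrays, with the replicate block and with the intensity-dependent prior (limma, adjusted p = 0.0176 to 0.0442). The difference between both MDSC groups was also 0.40 (limma, adjusted p = 0.36). Ccrl2 and Cx3cr1 were the receptors whose mean was higher in 6G- BM-MDSC than in MDSC (conv.), and the other 7 had a negative difference.

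Ccr2, the receptor by which Ly-6C-high monocytes leave the BM, did not pass in any comparison. It stood at 3.40 and 3.22 for MDSC (conv.), 3.20 and 3.12 for 6G- BM-MDSC, and 3.20 and 3.25 for DCs. The difference from DCs was 0.08 (95% interval -0.16 to 0.32) in MDSC (conv.) and -0.07 (95% interval -0.30 to 0.17) in 6G- BM-MDSC. Ly6c2, the Ly-6C antigen gene and a monocyte marker, was 3.15 higher in MDSC (conv.) than in DCs, and of 10 monocyte markers 3 were higher and 2 lower there, with 4 higher and 2 lower in 6G- BM-MDSC. Their summed signal was 500.5 and 522.2 with MDSC (conv.) RNA, 497.7 and 544.9 with 6G- BM-MDSC RNA, and 331.9 and 380.7 with DC RNA, and all 10 were well above background on every array. Of 10 macrophage markers, 1 was higher and 7 were lower in each MDSC group than in DCs, with a difference of -4.10 for the complement gene C1qa in MDSC (conv.). Of 10 eosinophil and basophil markers, 7 were higher and 1 was lower in MDSC (conv.) than in DCs, with 6 and 1 in 6G- BM-MDSC, and Mcpt8, a basophil protease, was 3.44 and 3.38 higher.

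**Figure D3:**
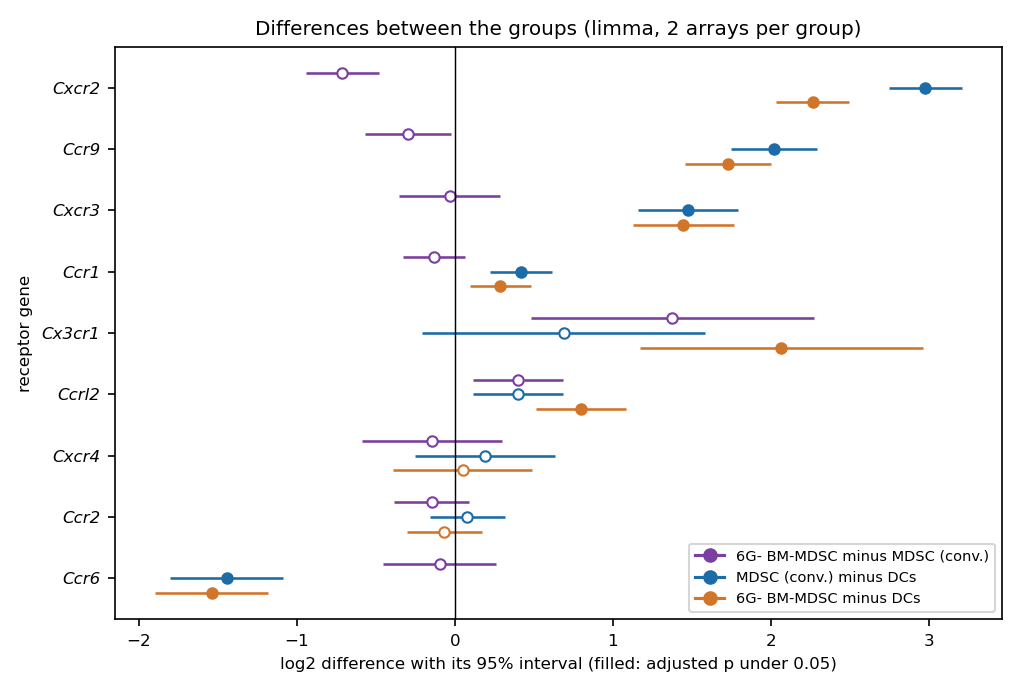
Log2 difference (horizontal axis) of the 9 receptors (vertical axis) in the 3 comparisons, with 95% intervals from limma. Filled points passed at an adjusted p of 0.05. Among the receptors, Cxcr2 was the farthest above DCs and Ccr6 the farthest below, and no point of 6G- BM-MDSC minus MDSC (conv.) is filled, although the intervals of Cxcr2, Ccr9, Cx3cr1 and Ccrl2 leave out 0.

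Of 22 ligands of these receptors, 18 were tested, and Ccl8, Ccl20, Cxcl9 and Rarres2, which encodes chemerin, did not pass the filter. In MDSC (conv.), 8 ligands were higher and 5 lower than in DCs, against 13.4% and 15.8% of all genes. In 6G- BM-MDSC, 7 were higher and 5 lower, against 15.0% and 17.8% of all genes. Between both MDSC groups 0 were called, with 4 at an unadjusted p under 0.05, against 10.8% of all genes. The median difference of the list was 0.21 and 0.22 in the comparisons with DCs. Ppbp had the largest measured difference, and the ligands of Cxcr2 are given first. Ppbp, a platelet and myeloid chemokine, stood at 3.27 and 3.54 for MDSC (conv.), 3.73 and 3.72 for 6G- BM-MDSC, and -1.32 and -0.62 for DCs, differences of 4.38 and 4.69. Cxcl5 was not well above background on either DC array, so that its level in MDSC (conv.) exceeded theirs at least 2.98-fold (limma, adjusted p = 0.00372) and its level in 6G- BM-MDSC at least 3.66-fold (limma, adjusted p = 0.00289). Cxcl5, counted among the ligands called higher, passed the filter through the MDSC groups alone, which favours a difference from DCs. Cxcl1 and Cxcl12 also passed it through these groups alone, and neither was called. The neutrophil chemoattractant Cxcl2 was higher than in DCs by 1.91 and 2.17, and its relative Cxcl3 by 1.35 and 2.45.

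Cxcl3 had -1.45 and -1.48 with MDSC (conv.) RNA, -0.36 and -0.36 with 6G- BM-MDSC RNA, and -3.25 and -2.37 with DC RNA. Its difference between both MDSC groups was 1.1, which did not pass (limma, adjusted p = 0.347), and stood opposite in sign to that of the receptor Cxcr2. Cxcl1 had -3.71 and -3.26 for MDSC (conv.), -2.75 and -2.46 for 6G- BM-MDSC, and -5.14 and -3.63 for DCs, with the first DC array not well above background, and its differences from DCs did not pass (limma, adjusted p = 0.244 and 0.0534). On DC replicate 1, Cxcl1, Cxcl2, Cxcl3 and Cx3cr1 were all lower than on DC replicate 2. Fractalkine, Cx3cl1, was lower than in DCs in both MDSC groups, with 2.13 and 2.04 with MDSC (conv.) RNA, 2.53 and 2.30 with 6G- BM-MDSC RNA, and 3.64 and 3.64 with DC RNA, differences from DCs of -1.56 and -1.22 that both passed (limma, adjusted p = 0.00107 and 0.00194).

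The ligands of Ccr1 went both ways, and the named ligands of Ccr2 had negative differences from DCs. Ccl3 was higher than in DCs, with differences of 1.23 for MDSC (conv.) and 1.16 for 6G- BM-MDSC, while Ccl5 had differences of -1.24 and -0.92, and these calls passed. Ccl2, the main ligand of Ccr2, did not pass, with -0.20 and -0.10, and Ccl7 and Ccl12, which bind the same receptor, were lower, with -0.78 and -0.75 for Ccl7 and -0.93 and -1.02 for Ccl12. Ccl25, the ligand of Ccr9, was higher by 0.38 and 0.52, and Cxcl10, a ligand of Cxcr3, by 0.67 and 0.83. Cxcl11, which binds the same receptor, had differences of -0.20, which did not pass, and -0.35, which did (limma, adjusted p = 0.166 and 0.0429). Cxcl12, the ligand of Cxcr4, had differences of 0.04 and -0.05, neither of which passed.

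**Figure D4:**
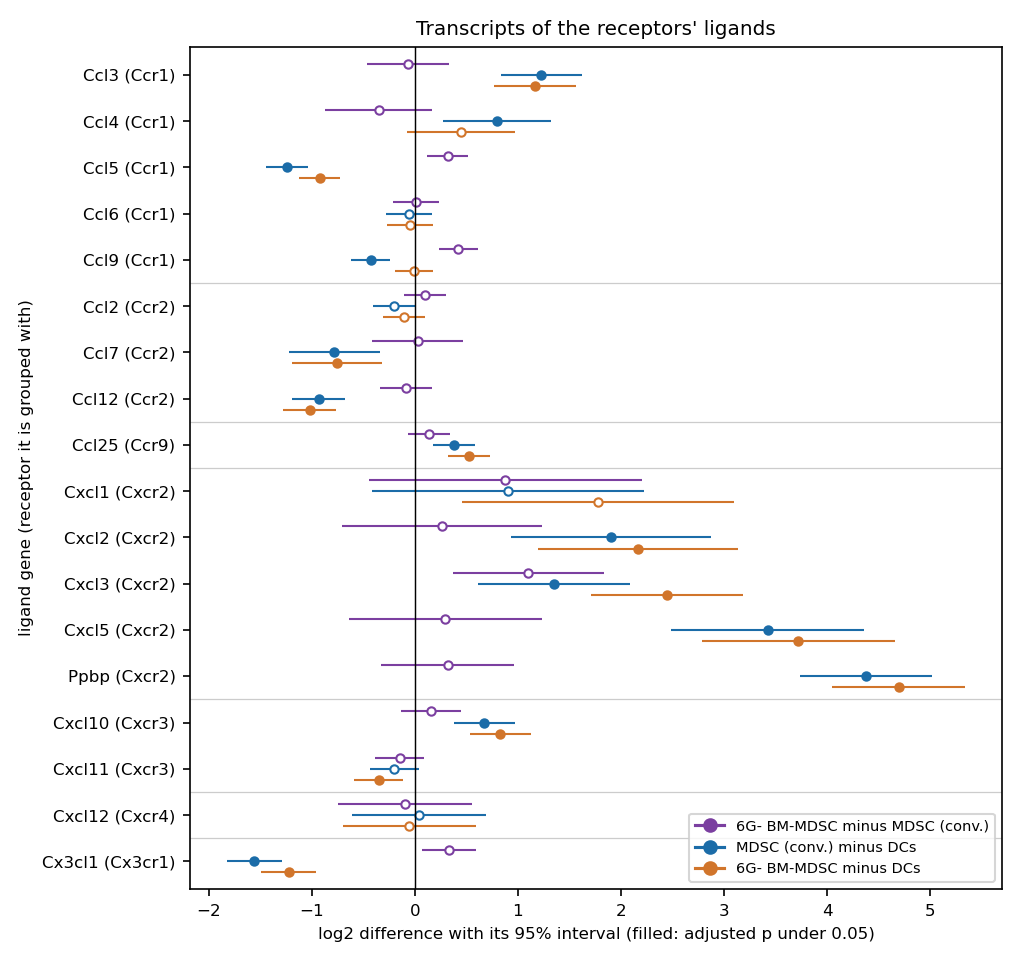
Log2 difference (horizontal axis) of the 18 tested ligands in the 3 comparisons, with 95% intervals from limma, each ligand grouped with a receptor it is known to bind (in brackets), although several bind more than 1 receptor. Filled points passed at an adjusted p of 0.05. Ppbp, a ligand of Cxcr2, reaches farthest to the right, with 4.38 and 4.69, and Cx3cl1, Ccl5 and Ccl12 lie to the left.

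Of 17 other chemokine and chemerin receptors, 11 were tested. Compared with DCs, 3 were higher and 2 lower in MDSC (conv.), against 13.4% and 15.8% of all genes. In 6G- BM-MDSC, 3 were higher and 1 was lower, against 15.0% and 17.8% of all genes. The receptors called higher in each MDSC group were Ccr4, Ccr10 and Cxcr1. Each of them passed the filter on dim probes through an MDSC group alone, which favours a difference from DCs. Between both MDSC groups 0 were called. Ccr4, known from T cells that follow Ccl17 and Ccl22, was called higher in both MDSC groups (limma, adjusted p = 0.008 and 0.00765). It stood at -1.73 and -2.69 for MDSC (conv.), -2.25 and -2.20 for 6G- BM-MDSC, and -4.64 and -4.42 for DCs, with the first DC array not well above background. Cxcr1, the closest relative of Cxcr2, was not well above background on either DC array or on MDSC (conv.) replicate 1, and its level in 6G- BM-MDSC exceeded that in DCs at least 1.17-fold (limma, adjusted p = 0.00485). Ccr10, a receptor of skin-homing lymphocytes, exceeded the DC level at least 1.54-fold in MDSC (conv.) (limma, adjusted p = 0.0192). Ccr7, the receptor that takes mature DCs to lymph nodes, was lower, with -0.73 and -0.55.

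All 22 genes of receptor signalling and desensitisation were tested. Compared with DCs, 3 were higher and 6 lower in MDSC (conv.), against 13.4% and 15.8% of all genes. In 6G- BM-MDSC, 3 were higher and 5 lower, against 15.0% and 17.8% of all genes. Between both MDSC groups 0 were called. The largest differences in MDSC (conv.) were those of Gng2, a G protein gamma subunit (-0.65 and -0.70), Arrb1, the arrestin that uncouples receptors (-0.68 and -0.64), Grk3, a kinase that marks them for arrestin (-0.63 and -0.54), and Prex1, an activator of Rac downstream of G proteins (-0.60 and -0.56). Each of these 4 genes was lower in both MDSC groups. The genes that were higher in MDSC (conv.) were Rac2, a GTPase of blood cells (0.55 and 0.55), Vav1, which activates Rac (0.47 and 0.47), and Elmo1 (0.31 in MDSC (conv.)), and Was, an actin regulator, was called higher in 6G- BM-MDSC (0.41).

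By position, 5 of the 9 receptors lie on chromosome 9, 2 on chromosome 1, 1 on chromosome 17 and 1 on chromosome X. On chromosome 9, Ltf and 9 of the receptor genes follow in the order Ltf, Ccrl2, Cx3cr1, Ccr9, Cxcr6, Xcr1, Ccr1, Ccr1l1, Ccr3 and Ccr2. Neighbours differed from DCs by different amounts. Ltf, the neutrophil granule gene beside Ccrl2, was 4.15 and 4.07 higher, against 0.40 and 0.80 for Ccrl2. On chromosome 1, Rufy4, beside Cxcr2, was also higher in the MDSC groups, by 1.40 and 1.20, while its other neighbour Cxcr1 was too dim in DCs for more than the bound above. The neighbours of Ccr6, Cep43 and Mpc1, had differences between -0.013 and 0.003.

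The genes most like each receptor over the 6 arrays were found by the distance between their log2 signals after the mean of each gene was subtracted, among 15793 genes, as a description. Cxcr2 had no close match, with Vpreb3 and Trpm2 nearest at a distance of 0.396. Ccr6 was nearest to Gbp11 (0.104), Ccr9 to Ckap4 (0.138), Cxcr3 to Sh2b2 (0.174) and Ccrl2 to Lpcat2 (0.105). Cx3cr1 was nearest to Adgb (0.584), Cxcl1 (0.627) and Il1a (0.676), all farther away than the nearest genes of the other 8 receptors. For Ccr1, Ccr2 and Cxcr4, whose signals varied little, the nearest genes were Ints12 (0.056), 2610507B11Rik (0.047) and Slc27a4 (0.095).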

How the data were processed

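Total RNA of 6 samples, 2 for each of the 3 cultures, was labelled with Cy3 and hybridised to Agilent mouse arrays, and groups were taken from the sample titles. The deposited values are processed intensity values on a linear scale, from which the authors' image software (Agilent Feature Extraction, 10.7.3.1 by the file headers and 10.5.1.1 by the submitters' notes) had subtracted the background, with no scaling between arrays. Checked against the series' own table, 0 of 377856 intensities differed by over 0.01.

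Control probes and spots marked by the image software (103 to 146 per array) were dropped, and log2 values were centred on the 75th percentile of their array (R 4.3.3 with version 1.17.8 of its data.table package). A probe was kept if both samples of some group exceeded the background clearly (33484 of 56605), and the brightest probe stood for a gene. Groups were compared with limma 3.58.1 (lmFit and eBayes, group as the only factor, two-sided, residual degrees of freedom 3, prior 1.96), with Benjamini-Hochberg adjustment. The test was also run on simulated data with known changes. Names were updated through RefSeq accessions for 1535 probes. The number of arrays limits the precision.

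The members and gene lists were chosen with earlier results of these data known. Every member was named. The rule for other names took up to 4 genes of each list, ranked by the size of their difference where the test was passed, and the 3 genes nearest to each member by pattern. The text gives the first of each list and some of the others, with the first nearest gene for most members. Other ligands, neighbours and markers, Ly6g among them, were chosen with their values in view. The alternatives were other background corrections, scalings, filters, probe summaries, marked spots kept, the series' table, other fits and priors, the t-test that the methods name, the replicate block, leaving out each array and, added after seeing the data, the dimmer probe of Cxcr4 and Cx3cr1.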

Additional observations from a re-analysis of the deposited data

How the results depend on the processing

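Cxcr2, Ccr9 and Ccr6 kept the direction and the call of their differences from DCs in every alternative, apart from the t-test, although normexp lowered those of Ccr9 to 1.20 and 1.01. Cxcr3 passed the filter through the MDSC groups alone, so its calls are not counted with these. With the methods' t-test adjusted over all genes, 0 members were higher and 0 lower in both comparisons with DCs (5 and 6 at an unadjusted p under 0.05), and 0 between both MDSC groups. With a prior variance that depends on intensity, 1 member, Cxcr2, was lower in 6G- BM-MDSC than in MDSC (conv.). The number of members higher than in DCs was 3 to 5 in MDSC (conv.) and 4 to 5 in 6G- BM-MDSC when 1 array was left out, with 1 lower in each. With the dimmer probe of Cxcr4 and Cx3cr1 it was 5 and 7, where that of Cx3cr1 passed the filter through the MDSC groups alone. Directions reversed for differences that were not called, and the cause was not tested. With normexp background correction, 6G- BM-MDSC minus DCs was 0.052 for Ccr2 and -0.072 for Cxcr4, and with quantile normalization 6G- BM-MDSC minus MDSC (conv.) was 0.014 for Cxcr3. When 1 array was left out, 6G- BM-MDSC minus MDSC (conv.) ranged from -0.228 to 0.038 for Ccr6, from -0.17 to 0.106 for Cxcr3 and from -0.367 to 0.083 for Cxcr4, MDSC (conv.) minus DCs from -0.009 to 0.169 for Ccr2, and 6G- BM-MDSC minus DCs from -0.174 to 0.275 for Cxcr4. The replicate numbers are only shared labels (correlation of replicate differences 0.114, 0.125 and 0.0416 between the groups). With the replicate block, 5 members were higher and 1 lower than in DCs in each MDSC group, and 0 were called between both MDSC groups. Ccrl2 was gained in MDSC (conv.) (limma, adjusted p = 0.0442) and Ccr1 was lost in 6G- BM-MDSC (limma, adjusted p = 0.0624). The counts of members that differed from DCs in this paragraph include Cxcr3. The share of all genes called under each alternative is not given here, so these counts have no background beside them.

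Of the differences of single members under these alternatives, 488 kept their direction and their side of the threshold, 27 lost a call, 11 gained one and 11 changed sign without one. Cxcr3 was not well above background in DCs, so its fold difference from DCs is uncertain, and 2 arrays per group limit all intervals.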
